A study of Marchantia polymorpha with 18 samples.

Results

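The 121 genes described here are the well-expressed genes of Marchantia polymorpha thallus whose messenger RNA was at least 3-fold higher in crushed lobes than in intact plants in both genotypes. Marchantia polymorpha is a liverwort, and its thallus is the flat green plant body. The 121 genes were taken from a table of 19355 genes by their levels in CPM, which are counts scaled to a common library total. They were chosen by the measured levels of the intact and damaged libraries. A member had a mean of at least 20 CPM over the 6 intact libraries and at least a 3-fold higher group mean in damaged lobes, separately in wild type and in the mutant. Of the 7805 genes with at least 20 CPM, 127 (1.63%) met the criteria. Of these 127, 6 were left out by name, namely Mp4CL2, MpLOX2, MpFAD8, MpDIR48, MpCYP74N2 and MpJAZ. A symbol was known for 47 members, and the other 74 are given by identifier.

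The study asked how a mutation of MpGLR, a gene of the glutamate receptor-like channel family, alters gene expression after wounding. Plants of the wild type and of Mpglr-9, a CRISPR-cas deletion mutant represented by 1 line, were grown for 28 days on soil. Each genotype had 3 conditions. Intact plants were not wounded, damaged samples were lobes crushed with serrated forceps (2 lobes per plant), and systemic samples were the untouched lobes beside them. Wounded tissue was taken 4 h after crushing, and each of the 3 replicates per group pooled 9 plants. The 18 libraries held 17312755 to 30690205 counts, so the lowest admitted level of 20 CPM stood on far more reads than the 3 taken as the limit of detection. No library stood against its label in condition. The deleted gene itself was not analysed here, so its counts gave no check of the genotype labels. In bulk tissue, fewer cells of a type and less RNA per cell cannot be told apart.

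Land plants answer tissue damage by remaking part of their metabolism. The shikimate pathway of the plastid leads from sugar phosphates to chorismate and on to phenylalanine, from which phenolic compounds are built. Polyphenol oxidases and peroxidases oxidise phenols, and dirigent proteins steer the coupling of phenolic radicals. Lipoxygenases start the synthesis of oxylipins from fatty acids, and GH3 enzymes attach amino acids to auxin or related acids. No sequence is shown, because only gene names were at hand for these members.

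Together the members made up 1.02%, 1.02% and 1.12% of all counts in the 3 intact wild-type libraries and 6.89%, 6.24% and 5.56% in the damaged ones. In Mpglr-9 they made up 1.01%, 1.01% and 1.00% of counts in intact plants and 6.91%, 5.95% and 5.68% in damaged lobes. The damaged mean was 6.23% ± 0.665 (SD, n = 3) in wild type and 6.18% ± 0.648 (SD, n = 3) in the mutant. In the untouched lobes the share was 1.06%, 1.03% and 1.03% in wild type and 1.09%, 1.03% and 0.964% in the mutant. Damaged libraries stood far above the other 12, while systemic and intact libraries overlapped.

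**Figure D1:**
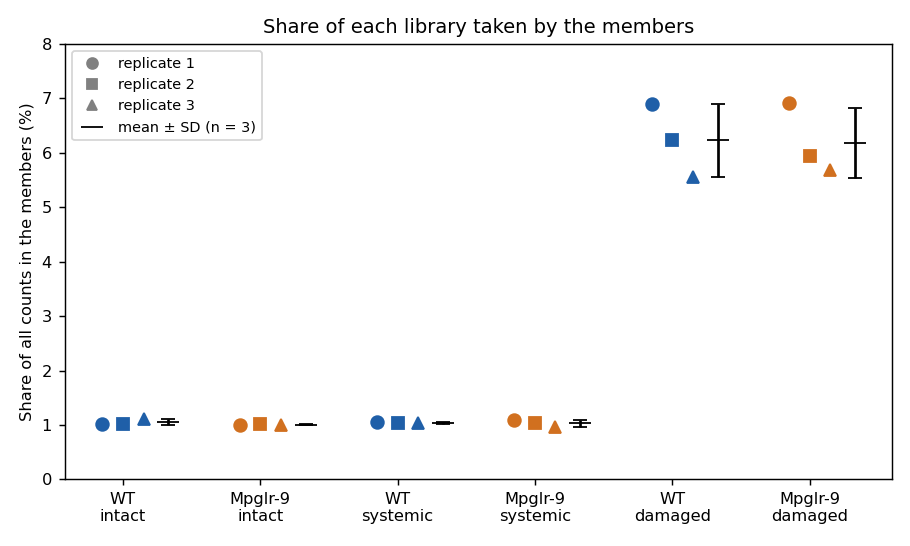
Share of all counts (percent, linear axis from 0) held by the 121 members in each of the 18 libraries, by genotype and condition; each point is a library and the marks give the group means. The 6 damaged libraries lie between 5.56% and 6.91% and the other 12 between 0.964% and 1.12%.

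Folds of group means after crushing ran from 3.02 to 23.6 in wild type, with a median of 4.83, and from 3.01 to 31.2 in Mpglr-9, with a median of 4.71. In both genotypes 17 members reached 10-fold, 45 reached 5-fold and 33 stayed under 4-fold. Each of the 121 had all 6 damaged libraries above all 6 intact ones, as did 21.4% of the 13450 genes tested. All 121 were also called higher by edgeR in each genotype at an adjusted p under 0.05, against 27.7% of tested genes in wild type and 27.6% in Mpglr-9. These counts describe the choice of the members and show nothing further, since the same libraries chose them. Near the thresholds, Mp2g23490 was admitted at 20.4 CPM and Mp2g05910 missed at 19.6 CPM. MpPPO37 was admitted at 3.02-fold in wild type and Mp5g03900 missed at 2.98-fold. Mp2g09460 was admitted at 3.01-fold in the mutant and Mp8g00290 missed at 2.97-fold. CPM are not scaled for gene length, so orders of genes by reads and sums over genes given below also depend on length. Changes are read between samples of the same gene.

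**Figure D2:**
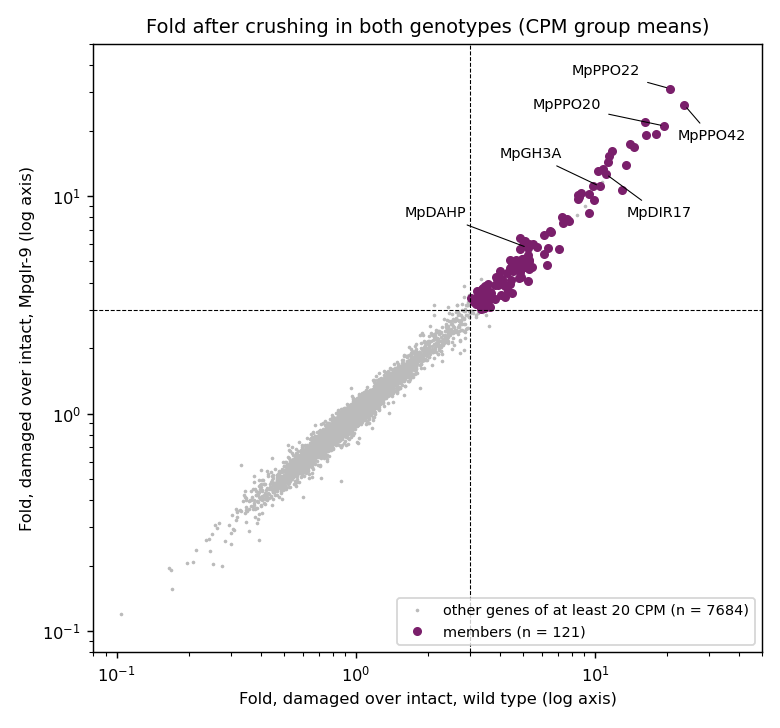
Fold of damaged over intact group means in wild type (horizontal) and Mpglr-9 (vertical), both on log axes, for the 121 members and the 7684 other genes with at least 20 CPM in intact plants, the 6 genes left out by name among them. Dashed lines mark the 3-fold limits of the choice. MpPPO42 (23.6-fold and 26.2-fold) and MpPPO22 (20.5-fold and 31.2-fold) lie farthest out.

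Among the members with a symbol were 5 enzymes of the shikimate pathway and its branch to phenylalanine, and their folds lay between 3.86 and 6.02. MpDAHP carries the name of DAHP synthase, which catalyses the entry step of the pathway. Its levels were 676, 565 and 559.7 CPM in intact and 3475, 3121 and 2805 CPM in damaged wild type. In Mpglr-9 it read 649, 572 and 529 CPM in intact and 3661, 3381 and 3076 CPM in damaged thallus. Every damaged library was over 4 times the highest intact one, and the systemic libraries, at 692, 638 and 648 CPM in wild type and 689, 682 and 585 CPM in the mutant, overlapped the intact range. The means were 5.22-fold higher in wild type and 5.78-fold higher in Mpglr-9.

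MpSK1, named for shikimate kinase, which phosphorylates shikimate, read 73.9, 74.8 and 85.2 CPM in intact and 302, 310.0 and 289 CPM in damaged wild type. Mutant plants gave 70.0, 75.2 and 89.9 CPM intact and 381, 314 and 301 CPM damaged. MpEPSPS, the enzyme that joins phosphoenolpyruvate to shikimate phosphate and the target of the herbicide glyphosate, was 5.02-fold higher in wild type and 5.15-fold higher in Mpglr-9. Its damaged libraries read 576, 494 and 392 CPM in wild type and 555, 446 and 435 CPM in Mpglr-9, and its 6 intact libraries lay between 88.2 and 103 CPM. MpCS, named for chorismate synthase, which closes the common trunk of the pathway, was 5.49-fold higher in wild type and 6.02-fold higher in Mpglr-9. Its wild-type libraries went from 178, 169 and 181 CPM in intact plants to 1052, 998 and 845 CPM in damaged lobes. For all of these genes the intact and damaged ranges were far apart in both genotypes.

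MpADT4 belongs to the arogenate dehydratases, which form phenylalanine. It read 80.2, 69.4 and 61.5 CPM in intact and 421, 361 and 285 CPM in damaged wild type. Mutant libraries read 82.2, 70.6 and 67.8 CPM intact and 430.3, 366 and 333 CPM damaged. The damaged library numbered 1 was the highest and that numbered 3 the lowest in each genotype, a pattern shared by most members and taken up below.

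Across the whole list of 13 named genes of shikimate and aromatic amino acid synthesis, all tested, 10 rose and 1 fell in wild type, and 9 rose and 1 fell in Mpglr-9. These counts include the 5 members, and the counts given below for other lists likewise include their members. The list's median log2 fold change was 0.98 in wild type and 1.13 in the mutant, against -0.03 and -0.02 over all tested genes. All 13 had at least 20 CPM in intact plants. Those outside the members had therefore missed the 3-fold limit, and that they rose less follows from the choice. Mp3DHQ2, named for the pathway intermediate 3-dehydroquinate, rose by 0.98 ± 0.07 (log2, SE) in wild type (edgeR, adjusted p = 1.72e-09), while Mp3DHQ1 differed by 0.04 ± 0.09 (adjusted p = 0.713). MpCM, chorismate mutase, rose by 0.54 ± 0.07 (edgeR, adjusted p = 2.4e-06). MpPAT, prephenate aminotransferase, rose by 1.06 ± 0.08 (edgeR, adjusted p = 4.8e-09).

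Paralogs did not share one direction. MpSK2, the other named shikimate kinase, fell by 0.67 ± 0.08 on the log2 scale in wild type (edgeR, adjusted p = 1.18e-06) and by 0.69 ± 0.08 in Mpglr-9 (edgeR, adjusted p = 7.49e-07), whereas MpSK1 was 3.86-fold higher in wild type and 4.23-fold higher in Mpglr-9. MpSK2 read 49.6, 51.7 and 54.4 CPM in intact and 28.0, 31.1 and 36.6 CPM in damaged wild type, with no overlap. Among the other arogenate dehydratases, MpADT2 rose by 0.92 ± 0.06 in wild type (edgeR, adjusted p = 5.67e-10) and MpADT3 by 0.42 ± 0.12 (edgeR, adjusted p = 0.00844). In Mpglr-9 the difference of MpADT3 was 0.21 ± 0.12 (edgeR, adjusted p = 0.173), which did not pass. MpADT1, whose identifier stands directly before that of MpADT2, differed by -0.11 ± 0.07 (adjusted p = 0.231), with 30.1, 31.2 and 31.7 CPM in intact and 26.4, 29.9 and 27.8 CPM in damaged wild type. The difference between paralogs in their change was not itself tested.

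**Figure D3:**
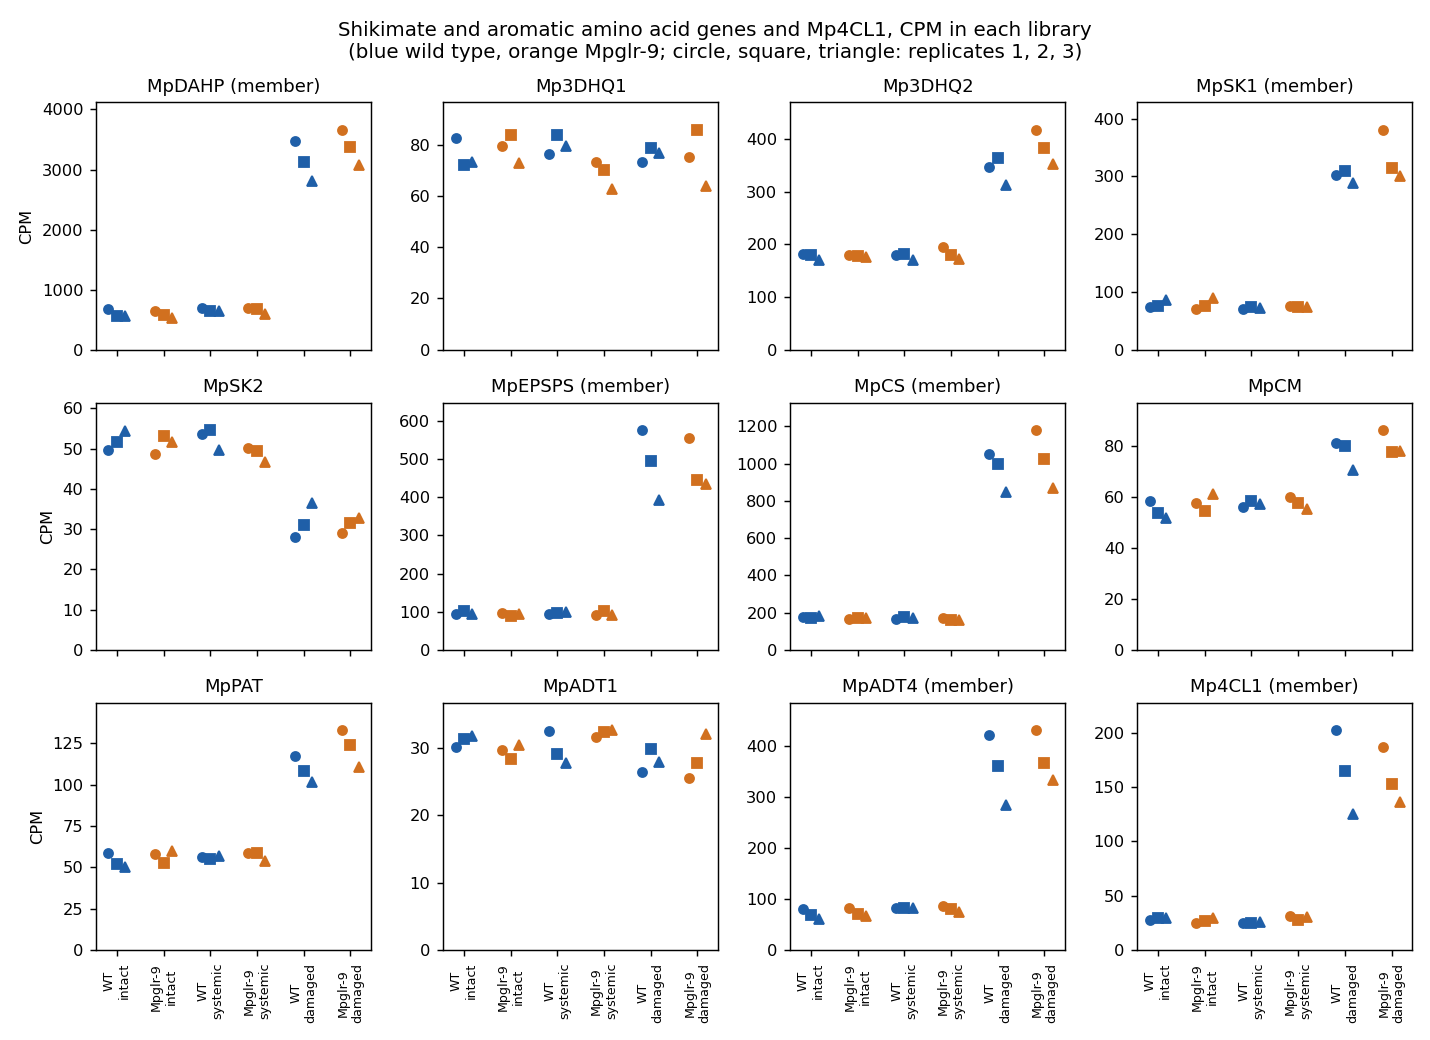
Level (CPM, linear axes from 0) in each of the 18 libraries, one panel per gene, for 11 of the 13 named genes of shikimate and aromatic amino acid synthesis (all but MpADT2 and MpADT3) and for Mp4CL1; members are marked in the panel titles, colours give the genotype and shapes the replicate number. In the member panels the damaged libraries stand apart above the intact and systemic ones, as in MpDAHP at 2805 to 3661 CPM, while in MpSK2 they lie below them.

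Downstream of phenylalanine, Mp4CL1 was a member. It belongs to the 4-coumarate:CoA ligases, which activate hydroxycinnamic acids, and read 27.3, 29.4 and 29.6 CPM in intact and 202, 165 and 125 CPM in damaged wild type. In Mpglr-9 the values were 25.2, 26.4 and 29.8 CPM and 187, 153 and 136 CPM. Of 15 tested genes of phenylpropanoid entry (phenylalanine ammonia-lyases, cinnamate hydroxylases and ligases), 12 rose and 1 fell in wild type, and 11 rose and 1 fell in the mutant. Their median log2 fold change was 1.10 and 0.88, against -0.03 and -0.02 over all tested genes, of which 27.7% and 27.6% rose. The genes that rose include Mp4CL1 and Mp4CL2, which both met the thresholds of the choice. They also include MpPAL4, MpPAL6, MpPAL7 and MpPAL-like2, with low intact group means of 1.38 to 8.74 CPM. The members MpPKS/CHS20 and MpPKS/CHS23 belong to the chalcone synthase family, which builds polyketides on such CoA esters. MpPKS/CHS20 was 4.83-fold higher in wild type and 4.90-fold higher in Mpglr-9, and MpPKS/CHS23 was 4.41-fold higher in wild type and 5.06-fold higher in Mpglr-9. Of the 28 tested genes of that family and of flavonoid synthesis, 15 rose and 6 fell in wild type. MpOMT8, an O-methyltransferase by name, was 4.86-fold higher in wild type and 6.42-fold higher in Mpglr-9.

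The members with the most reads in damaged lobes included enzymes and proteins that act on phenols. MpPPO42, a polyphenol oxidase by name, read 101, 104 and 184 CPM in intact and 3484, 3008 and 2696 CPM in damaged wild type. In Mpglr-9 it read 81.5, 109 and 126 CPM in intact and 2878, 2671 and 2722 CPM in damaged thallus. Its folds, 23.6 and 26.2, were the largest of all members in wild type and next to the largest in the mutant.

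MpPPO22 read 158, 173 and 252 CPM in intact and 4238, 3967 and 3753 CPM in damaged wild type. The mutant gave 98.5, 137 and 125 CPM intact and 4033, 3493 and 3689.6 CPM damaged. Its intact ranges did not overlap between genotypes, while the damaged ranges did. MpPPO20 was 19.5-fold higher in wild type and 21.0-fold higher in Mpglr-9, with 64.4, 61.3 and 53.8 CPM in intact and 1381, 1089 and 1024 CPM in damaged wild type. MpPPO37 stood at the lower end of the members, at 3.02-fold higher in wild type and 3.40-fold higher in Mpglr-9. Of 36 tested polyphenol oxidase genes, 12 had the 20 CPM in intact plants that membership requires, and these 4 were members. In wild type 12 of the 36 rose and 4 fell, and the family's median log2 fold change was 0.10. Polyphenol oxidases form a large gene family in Marchantia, and reads of near-identical copies may be shared or lost in counting, which cannot be checked from a count table.

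MpDIR17, a dirigent protein by name, read 362, 349 and 427 CPM in intact and 4516, 4284 and 3784 CPM in damaged wild type. In the mutant it read 313, 378 and 327 CPM intact and 4865, 4088 and 3908 CPM damaged. MpDIR17 was 11.1-fold higher in wild type and 12.6-fold higher in Mpglr-9, and its systemic libraries, 354, 313 and 315 CPM in wild type and 374, 347 and 314 CPM in the mutant, overlapped the intact ones. MpDIR9 was 6.38-fold higher in wild type and 5.76-fold higher in Mpglr-9. MpDIR46 and MpDIR47, which have adjoining identifiers beside the left-out MpDIR48, were between 3.33-fold and 3.81-fold higher. Of 47 tested dirigent genes, 32 rose and 3 fell in wild type, and 31 rose and 2 fell in the mutant. The 47 include the 4 members and MpDIR48, which met the same thresholds. Over all tested genes, 27.7% rose in wild type and 27.6% in Mpglr-9.

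MpPOD164, a class III peroxidase, read 282, 272 and 447 CPM in intact and 1415, 1138 and 1278 CPM in damaged wild type, and was 3.83-fold higher in wild type and 3.89-fold higher in Mpglr-9. MpPOD26 was 3.28-fold higher in wild type and 3.21-fold higher in Mpglr-9. Of 106 tested class III peroxidase genes, 10 rose and 42 fell in wild type, and 12 rose and 48 fell in Mpglr-9, with a median log2 fold change of -0.71 and -0.77. The summed level of the family was 1724 to 1835 CPM in intact and 2914 to 3402 CPM in damaged libraries. That sum includes MpPOD164 and MpPOD26, which were chosen for rising, and MpPOD164 was a large part of it in damaged lobes. The higher sum therefore does not show a rise of the family as a whole.

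Lipid enzymes among the members were MpLOX10, MpLOX16 and MpMGDG. MpLOX10, a lipoxygenase, was 4.90-fold higher in wild type and 4.26-fold higher in Mpglr-9, with 39.5, 45.8 and 59.0 CPM in intact and 278, 211 and 217 CPM in damaged wild type. MpLOX16 was 4.05-fold higher in wild type and 3.52-fold higher in Mpglr-9. MpMGDG, named for the synthase of monogalactosyldiacylglycerol, the main lipid of chloroplast membranes, was 4.08-fold higher in wild type and 4.07-fold higher in Mpglr-9. Its libraries read 619, 579 and 486 CPM in damaged wild type and 632, 564 and 486 CPM in the damaged mutant.

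MpHMG, named for the reductase that limits the mevalonate route to isoprenoids, read 165, 176 and 192 CPM in intact and 727, 690.4 and 656 CPM in damaged wild type. In Mpglr-9 it read 169.8, 171 and 173 CPM intact and 756, 676 and 696 CPM damaged, and the means were 3.89-fold higher in wild type and 4.14-fold higher in Mpglr-9. Among the 7 tested genes of the mevalonate route, 4 rose and 1 fell in wild type; this list was added after values had been seen. MpHMGS, the enzyme before it in the route, rose by 1.43 ± 0.14 on the log2 scale (edgeR, adjusted p = 5.01e-07) and MpIDI1, isopentenyl diphosphate isomerase, by 1.04 ± 0.09 (edgeR, adjusted p = 1.82e-08). MpMK, mevalonate kinase, fell by 0.31 ± 0.09 (edgeR, adjusted p = 0.00866). Cytochrome P450 members were MpCYP97A35, MpCYP822B1, MpCYP829H1 and MpKOL3, the last named for its likeness to ent-kaurene oxidase, and their folds lay between 3.94 and 4.87. Of 92 tested P450 genes, 31 rose and 27 fell in wild type.

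MpGH3A, of the family that conjugates auxin and related acids to amino acids, was 10.4-fold higher in wild type and 11.1-fold higher in Mpglr-9. Its levels were 63.3, 56.2 and 60.8 CPM in intact and 724, 629 and 529 CPM in damaged wild type. Mutant plants gave 55.9, 61.2 and 50.7 CPM intact and 755, 606 and 498 CPM damaged. MpPIN3, of the family of auxin efflux carriers, was 3.43-fold higher in wild type and 3.47-fold higher in Mpglr-9. Of 24 tested auxin genes, 6 rose and 7 fell in wild type, so the list as a whole showed no common direction.

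Regulators among the members rose 3.27-fold to 6.12-fold. MpC1HDZ, a homeodomain-leucine zipper factor needed in Marchantia for the formation of oil body cells, read 119, 94.9 and 93.4 CPM in intact and 475, 399 and 336 CPM in damaged wild type. MpNAC7, a NAC factor, was 5.46-fold higher in wild type and 4.74-fold higher in Mpglr-9. MpR2R3-MYB20 was 4.11-fold higher in wild type and 3.93-fold higher in Mpglr-9, MpMADS1 4.19-fold higher in wild type and 3.86-fold higher in Mpglr-9 and MpBHLH1 3.27-fold higher in wild type and 3.28-fold higher in Mpglr-9. The kinase gene MpMAPKKK10, of the family at the head of MAP kinase cascades, was 6.12-fold higher in wild type and 5.40-fold higher in Mpglr-9, and MpPKC1 was 3.34-fold higher in wild type and 3.67-fold higher in Mpglr-9. Of the tested factors, 14 of 37 bHLH genes rose and 10 fell in wild type, 10 of 38 MYB genes rose and 8 fell, and 6 of 8 NAC genes rose and 1 fell.

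Among the members with a transporter symbol, MpNPF21, of the nitrate and peptide transporter family, had the largest folds. It read 124, 112 and 108 CPM in intact and 961, 798 and 733 CPM in damaged wild type, a difference of 7.23-fold. In Mpglr-9 it read 124, 118 and 114 CPM intact and 1086, 895 and 872 CPM damaged, a difference of 8.01-fold. MpEDS5 carries the name of the Arabidopsis exporter of a salicylic acid precursor from the plastid and was 5.09-fold higher in wild type and 6.19-fold higher in Mpglr-9. MpMATE1, of the family of multidrug and toxin extrusion carriers, MpABC65, an ABC transporter, and MpVPT had folds between 3.31 and 4.17. Of 154 tested transporter genes, 59 rose and 44 fell in wild type.

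Stress proteins included MpDHN2, a dehydrin, which was 7.06-fold higher in wild type and 5.69-fold higher in Mpglr-9, with 21.3, 27.1 and 27.9 CPM in intact and 227, 162 and 149.5 CPM in damaged wild type. MpLEA-like33, of the late embryogenesis abundant proteins, was 4.82-fold higher in wild type and 4.63-fold higher in Mpglr-9. The glutathione S-transferases MpGST9 and MpGST19, which attach glutathione to reactive compounds, had folds between 3.58 and 4.49. MpCuAO1, a copper amine oxidase, which oxidises amines and releases hydrogen peroxide, was 3.23-fold higher in wild type and 3.45-fold higher in Mpglr-9. MpLOVA was 4.70-fold higher in wild type and 4.71-fold higher in Mpglr-9. Of 68 tested genes of abscisic acid signalling and desiccation, 10 rose and 7 fell in wild type, and of 46 tested glutathione S-transferase and redox genes 16 rose and 13 fell.

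The 74 members without a symbol had a median fold of 4.97 in wild type and 4.89 in the mutant, and they made up 12 of the 17 members at 10-fold or more in both genotypes. Mp3g10600 was 16.1-fold higher in wild type and 21.9-fold higher in Mpglr-9, with 64.9, 65.7 and 80.2 CPM in intact and 1201, 1167 and 1030.3 CPM in damaged wild type. Mp3g01250 was 17.9-fold higher in wild type and 19.2-fold higher in Mpglr-9 and Mp7g06530 16.3-fold higher in wild type and 19.1-fold higher in Mpglr-9. Mp2g15380, Mp1g12210, Mp2g23490 and Mp5g01910 completed the 10 largest changes, with folds between 11.8 and 17.3. With many reads in damaged lobes, Mp3g19350 was 3.33-fold higher in wild type and 3.32-fold higher in Mpglr-9, Mp3g24240 5.06-fold higher in wild type and 4.70-fold higher in Mpglr-9 and Mp2g04890 3.21-fold higher in wild type and 3.24-fold higher in Mpglr-9. Mp2g04890 has the identifier next to MpHSP90-2, which itself was 2.91-fold and 3.15-fold higher. Mp6g06220 stands next to MpJAZ (4.998-fold and 5.27-fold), and Mp8g12940 next to MpLOX14 (2.77-fold and 2.42-fold). Whether reads of such neighbours were separated by strand is not given in the sources used here.

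Members lay on all 8 numbered chromosomes, from 11 of 1581 genes with at least 20 CPM on chromosome 1 (0.696%) to 25 of 1004 on chromosome 3 (2.49%). Only 5 had another member as the next identifier, in the run Mp3g13600, Mp3g13610 and Mp3g13620 and in the pair MpDIR46 and MpDIR47.

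**Figure D4:**
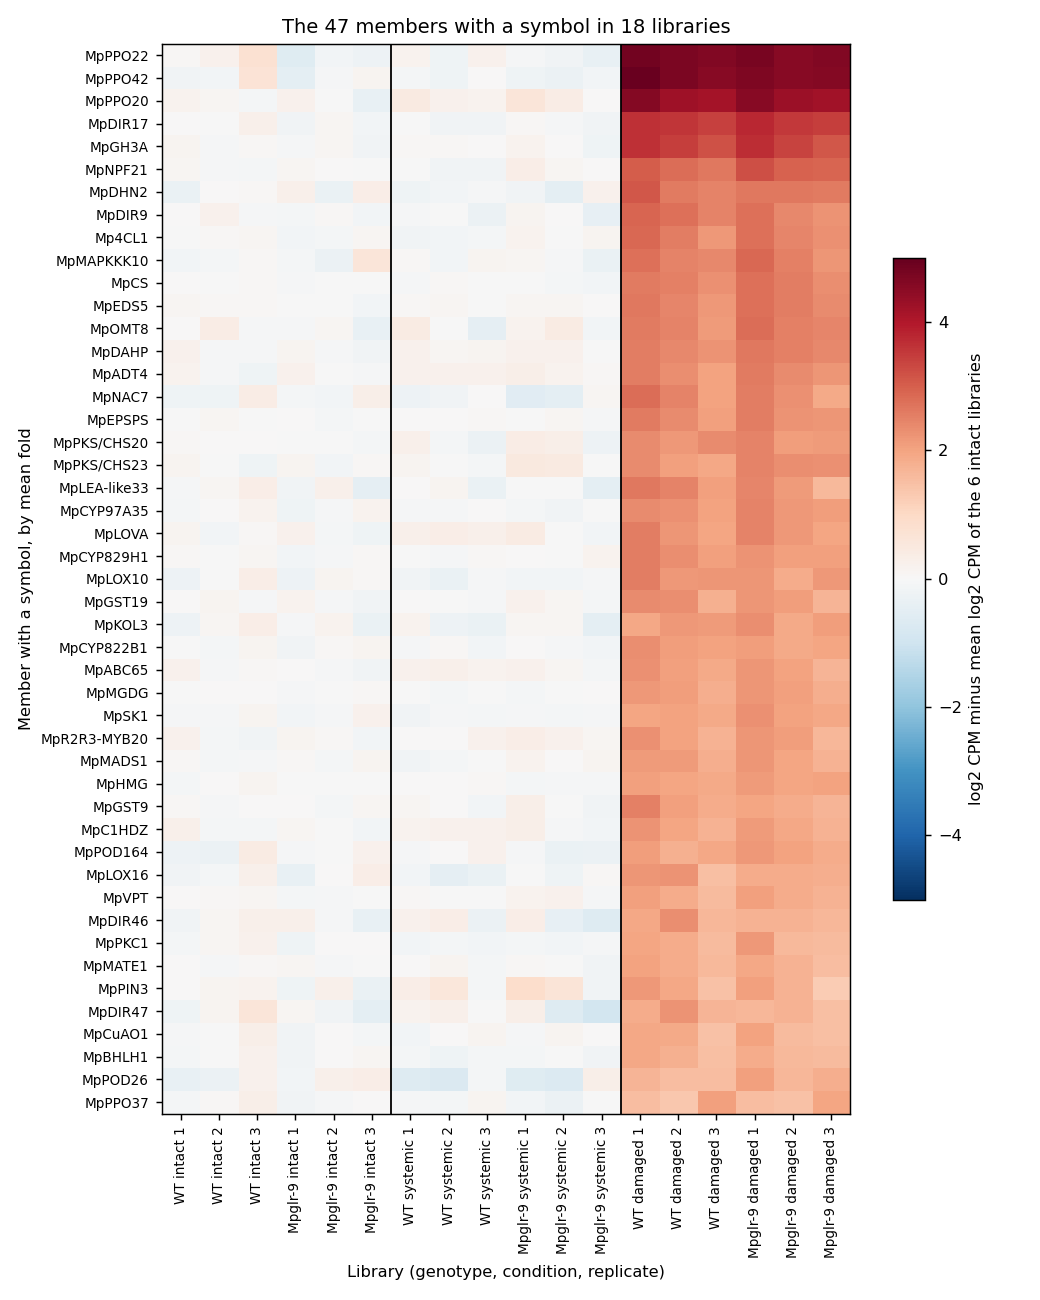
Log2 CPM of the 47 members with a symbol (rows, by mean fold) in the 18 libraries (columns, by condition, genotype and replicate number), each row shown as the difference from its mean over the 6 intact libraries. The 6 damaged columns are high in every row, from MpPPO42 and MpPPO22 at the top to MpPPO37 at 3.02-fold in wild type at the bottom, and the systemic columns are close to the intact ones.

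The untouched lobes of the wounded plants were not used to choose the members. Against intact plants, with both genotypes averaged, edgeR called 0 of 121 members and 0 of 13450 genes (0%) at an adjusted p under 0.05. At an unadjusted p under 0.05 there were 6 members (4.96%), beside 773 of all tested genes (5.75%). That number of members was unstable. It ranged from 2, without wild-type systemic replicate 1 or mutant intact replicate 3, to 11, without mutant systemic replicate 3, still with 0 genes called. Without the 6 libraries numbered 3 it was 21, with 0 members and 13 of all genes called. DESeq2 called 0 members (23 of all genes), with 8 members at an unadjusted p under 0.05, and limma-voom called 0 members (0 of all genes), with 7. A block for the replicate number changed this: edgeR then called 2 members higher and 11 of all genes, with 15 members at that level. Same-numbered systemic and intact libraries missed the limit for pairing. The members' median log2 difference was -0.01, 55 being above 0 and 66 below. The 95% interval of this averaged difference lay within ±1 for all 121 and within ±0.5 for 110. A 2-fold difference in the average over the genotypes thus lay outside the interval of every member. In single genotypes the interval lay within ±1 for 120 members in wild type and 117 in the mutant. No member had all 6 systemic libraries above or below all 6 intact ones, as 0.119% and 0.223% of tested genes had. The intact libraries enter both this comparison and the choice of members.

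The extremes were small beside the change in crushed lobes. MpPIN3 had the highest difference, 0.39 ± 0.21 (log2, SE; edgeR, adjusted p = 0.905). It read 45.4, 53.7 and 34.1 CPM in systemic and 36.1, 39.4 and 40.5 CPM in intact wild type. In the mutant it read 66.1, 56.2 and 31.9 CPM in systemic and 30.9, 43.3 and 28.6 CPM in intact thallus, and the ranges overlapped over the genotypes. MpPOD26 had the lowest, -0.38 ± 0.19 (edgeR, adjusted p = 0.893). The smallest p belonged to Mp7g02630, at -0.25 ± 0.09 (edgeR, adjusted p = 0.721), with 105, 99.96 and 106 CPM in systemic and 99.9, 113 and 132 CPM in intact wild type. In Mpglr-9 it read 88.9, 95.9 and 100.4 CPM in systemic and 114, 117 and 135 CPM in intact thallus. Mp8g12940 followed at -0.20 ± 0.08 (edgeR, adjusted p = 0.795).

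The change in crushed lobes could also be read against the untouched lobes of wounded plants in place of intact plants. The members' median log2 difference was 2.27, all 121 were called higher (32.4% of tested genes were), and each had all 6 damaged above all 6 systemic libraries (21.9% of tested genes). The damaged libraries had served in choosing the members, so this is a description.

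The systemic libraries also allowed a comparison of the genotypes in libraries that the choice of members did not use. It is not fully independent of that choice. These lobes lay beside the crushed ones, and same-numbered damaged and systemic libraries of the mutant correlated at 0.113 to 0.313. Between Mpglr-9 and wild type, edgeR called 0 members in systemic lobes, and 7 of all tested genes (0.052%). At an unadjusted p under 0.05 there were 6 members (4.96%) and 5.0% of all tested genes. DESeq2 and limma-voom also called 0 members, with 6 and 7 at an unadjusted p under 0.05. The members' median log2 difference was 0.01, and the 95% interval lay within ±1 for 118 and within ±0.5 for 86 members. Without overlap between the genotypes, 9 members were higher in the mutant and 9 lower (7.44% each), against 7.15% and 7.39% of all tested genes. Mp3g10690 had the smallest p. It read 88.5, 80.5 and 97.7 CPM in wild type and 115, 110.0 and 118 CPM in Mpglr-9, a log2 difference of 0.36 ± 0.10 (SE; edgeR, adjusted p = 0.58). Mp8g12940 read 51.2, 52.9 and 54.5 CPM in wild type and 43.7, 39.2 and 43.1 CPM in the mutant, a difference of -0.33 ± 0.11 (edgeR, adjusted p = 0.768). For these 2 genes the libraries of the genotypes did not overlap, but neither difference passed the adjustment. Fitted on the 6 systemic libraries alone, both passed, each with an edgeR adjusted p of 0.0479, and 28 of all genes were called.

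**Figure D5:**
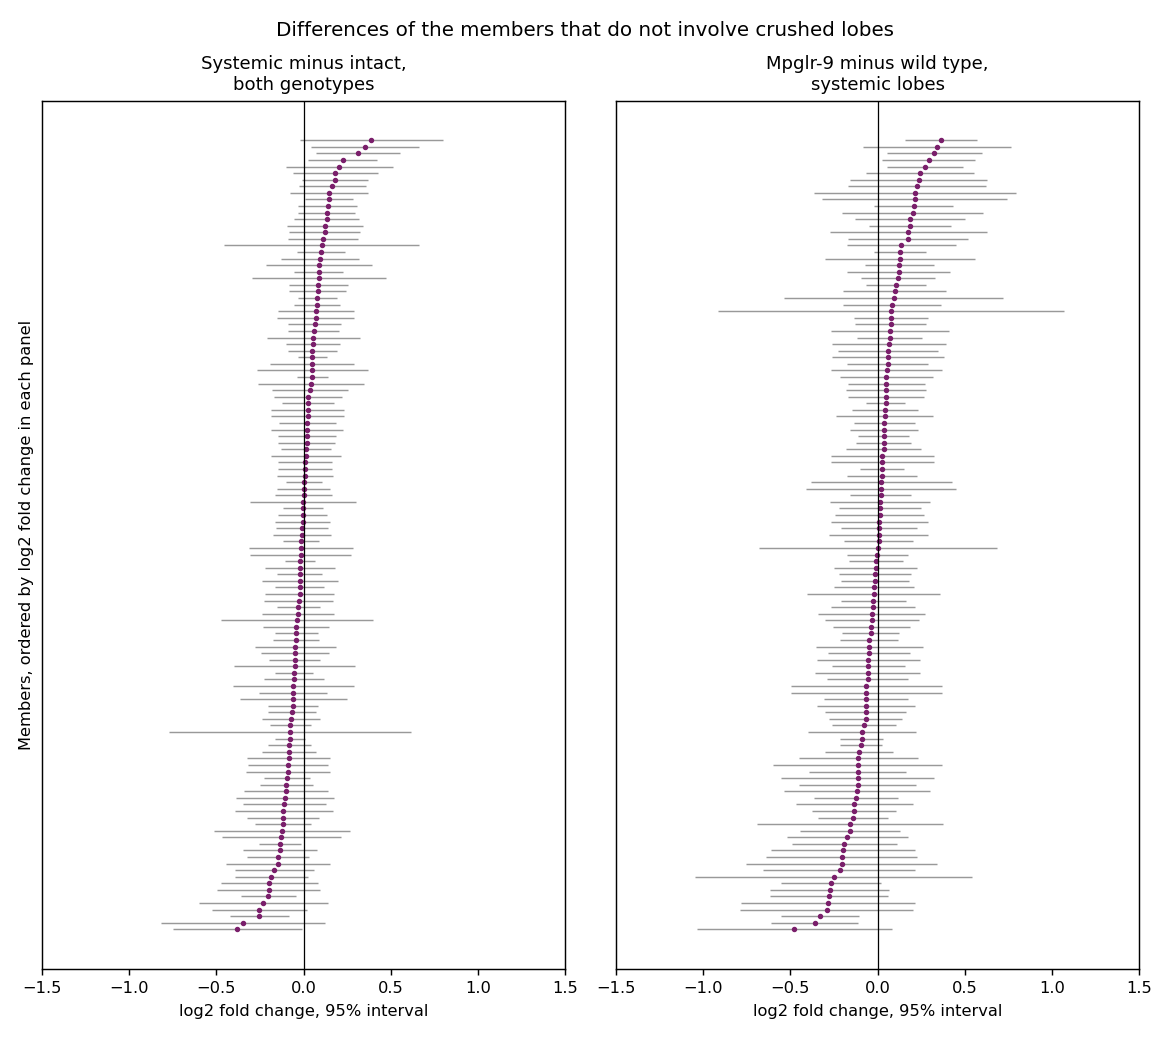
Log2 differences of the 121 members with 95% intervals (lines), ordered within each panel: systemic minus intact over both genotypes (left) and Mpglr-9 minus wild type in systemic lobes (right). The points on the left run from -0.38 for MpPOD26 to 0.39 for MpPIN3, and those on the right from -0.48 for MpDIR47 to 0.36 for Mp3g10690.

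The genotypes were also compared within intact plants and within damaged lobes, whose libraries had chosen the members, so these values are a description. In intact plants edgeR called 0 members between the genotypes (3 of all tested genes, 0.0223%). At an unadjusted p under 0.05 there were 3 members (2.48%), beside 2.99% of all tested genes. DESeq2 and limma-voom called 0 as well, with 4 and 3. With a block for the replicate number, edgeR also called 0, with 6. Mp3g10600 was lower in the mutant by 0.36 ± 0.09 on the log2 scale (edgeR, adjusted p = 0.966), which did not pass. MpPPO22 was lower in the mutant by 0.67 ± 0.17 on the log2 scale (edgeR, adjusted p = 1), which did not pass. In damaged lobes 0 members were called (4 of all tested genes, 0.0297%). At an unadjusted p under 0.05 there were 8 members (6.61%), beside 5.81% of all tested genes. DESeq2 and limma-voom called 0, with 8 and 10. Leaving out 1 damaged library gave 6 (without mutant replicate 2) to 15 (without wild-type replicate 3), and leaving out all libraries numbered 3 gave 23, each time with 0 members called. A block for the replicate number gave 19, with 0 members and 9 of all genes called. The smallest p was that of Mp7g04070, with a difference of 0.42 ± 0.12 (edgeR, adjusted p = 0.69). It read 145, 133 and 137 CPM in wild type and 209.6, 176 and 164 CPM in Mpglr-9, without overlap. Mp2g26760 followed at 0.21 ± 0.07 (edgeR, adjusted p = 0.763).

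The fold after crushing was higher in the mutant for 75 members (62.0%), against 57.1% of the 7684 other genes with at least 20 CPM, and the ratio of the folds lay between 0.764 and 1.52. No common direction held, since the members' median log2 difference in change (mutant minus wild type) was 0.03, but -0.09 without mutant damaged replicate 1, -0.05 without wild-type damaged replicate 3 and 0.11 without wild-type damaged replicate 1. The interaction sets the change after crushing in Mpglr-9 against that in wild type. By edgeR it was called for 0 members and 0 of all tested genes (0%). At an unadjusted p under 0.05 there were 5 members (4.13%), beside 2.49% of all tested genes. DESeq2 and limma-voom called 0 members, each with 5 at that level. Its 95% interval lay within ±1 for 116 members and within ±0.5 for 62. The requirement of 3-fold in both genotypes itself limits this difference. Mp3g10600 had the smallest p, at 0.43 ± 0.12 (log2, SE; edgeR, adjusted p = 1). Mp2g26760 followed at 0.30 ± 0.10 (edgeR, adjusted p = 1). MpPPO22 differed by 0.59 ± 0.24 (edgeR, adjusted p = 1); its damaged libraries overlapped between the genotypes.

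Within the damaged lobes the replicates were graded. The damaged library numbered 1 had the highest level for 100 of 121 members in wild type and 112 in Mpglr-9, and the library numbered 3 the lowest for 101 and 90. As shares these were 82.6% and 92.6% highest in number 1 and 83.5% and 74.4% lowest in number 3. Among the 2486 other genes with at least 20 CPM that rose in wild type, the shares were 55.8% and 53.9% highest in number 1 and 57.8% and 50.1% lowest in number 3. Those genes were called higher at any fold, whereas members had to reach 3-fold in these same damaged libraries. The larger shares of the members may therefore follow from the choice and are a description. The order was that of the damaged libraries over all genes, which lay at 81.1, 68.3 and 56.4 in wild type and 79.0, 66.0 and 56.8 in the mutant along the leading principal component of all libraries. Folds taken within one replicate number had medians of 5.33, 5.05 and 3.92 in wild type and 5.29, 4.56 and 4.28 in the mutant. These folds also depend on the intact libraries, of which wild-type number 3 had the highest share of members (1.12%). Same-numbered damaged and intact libraries correlated at as little as 0.065 in wild type and 0.082 in the mutant, and were not taken as pairs. Of the 121 members, 98 reached 3-fold within number 3 in wild type and 104 in the mutant, against 121 and 118 within number 1. Markers of photosynthetic tissue went the other way. MpRBCS, the small subunit of Rubisco, read 51.1, 63.7 and 66.8 CPM in damaged wild type and 55.2, 60.0 and 76.0 CPM in the damaged mutant, and all 3 genes of that marker list fell after crushing in both genotypes. The summed level of that list was 634.6 to 722 CPM in intact and 270.0 to 417 CPM in damaged libraries. Of 16 tested markers of dividing cells, 16 fell in wild type and 15 in the mutant, with a summed level of 555 to 625 CPM in intact and 223 to 361 CPM in damaged libraries. The reproductive marker MpPRM was at 0 to 0.073 CPM, at or under 3 counts, in every library. The part of these markers in the members' levels was not tested.

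The 3 members that varied most within groups were Mp6g20580, Mp8g06610 and Mp5g21600, with a within-group SD of 0.64, 0.48 and 0.40 on the log2 scale. Mp6g20580 read 25.6, 30.2 and 8.22 CPM in intact and 123, 68.8 and 42.7 CPM in damaged Mpglr-9, so that its damaged library numbered 3 stood closest to the intact ones. Between systemic replicates, which the choice of members did not use, the median SD of log2 CPM was 0.11 for the members and 0.07 for the 7684 other genes with at least 20 CPM. Of the 121 members, 96 exceeded that median of the others. The members had a lower median level in intact plants, 52.1 CPM against 61.9 CPM for the others. The other genes were not matched to the members in level or in response to crushing, and the source of the difference in SD was not tested.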

How the data were processed

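RNA was measured in 18 libraries, 3 per group, made by poly-A selection and sequenced as paired reads of 150 bases, per the labels' protocols. The authors deposited raw read counts per gene. Per the submitters' processing notes, the tools were HISAT2 and HTSeq. The strand setting, the versions and the build were not given in the sources used here, so no coordinate is printed, and antisense or near-identical genes may share reads. Symbols were read from RefSeq's gene table (MpTak2_v7.1), in which 120 of 121 members had a locus tag, and roles follow the symbols.

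The main tool was edgeR 4.0.16, run in R 4.3.3 on the counts as deposited. After filterByExpr, 13450 genes were tested with TMM scaling and a robust quasi-likelihood fit of 6 group means, two-sided, with Benjamini-Hochberg adjustment over all tested genes and a threshold of 0.05. The SE is the log2 fold change divided by the square root of F, and 95% intervals are 1.96 SE either side. Levels and folds of means use CPM from column sums. limma 3.58.1 (voom) and DESeq2 1.42.0 were alternatives. The fits were tested on simulated data, drawn without an effect of the replicate number. The outcome is not given here and does not bear on such an effect. Replicates each pool 9 plants, and p-values measure the spread between such pools.

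Members and gene lists were chosen with earlier results of these data known. The genes named are the 10 with most reads in damaged lobes, the 10 with the largest change, 30 with a symbol in order of reads in damaged lobes, those nearest each threshold, the 3 most variable, and the 2 smallest p per test; the other named members were chosen after their values were seen. List keywords were turned into symbols once names were at hand, and 3DHQ and PAT were added then. Same-numbered libraries deviated together, each with a correlation over 0.1, in 3 of 9 pairs of groups: wild type with mutant in intact and in damaged samples, and damaged with systemic mutant samples. A block for the number changed no call of a member in the comparisons of genotypes. Planned counts of promoter motifs were not made.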

Additional observations from a re-analysis of the deposited data

How the results depend on the processing

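Over 287 alternative results, 281 kept their side of the threshold or stayed within 1.5 times the value given. That count includes the comparisons of damaged lobes with intact plants and systemic lobes, whose outcome the choice of members largely set. It also takes calls higher and calls lower as separate results, so it is no measure of robustness. The number of members was 76 with a minimum of 40 CPM, 77 with a 4-fold limit, and 78 when the lowest damaged library had to be 3-fold above the highest intact one. Looser limits gave 170 with a minimum of 10 CPM and 180 with a 2.5-fold limit, both just within the 1.5 times allowed. TMM-scaled CPM gave 130. Leaving out 1 library gave 112 to 129 members. Without the libraries numbered 3, an alternative chosen after the data were seen, 139 genes met the criteria, 116 of them members. Upper-quartile scaling shifted the all-gene median after crushing in wild type to -0.12 (log2), with 2901 genes higher and 4768 lower in place of 3731 and 3738, and the members' median to 2.22. Mp6g20580 was no longer called in the mutant when only the groups compared were fitted (edgeR, adjusted p = 0.0554). In systemic lobes that choice called 1 member higher and 1 lower in Mpglr-9. With a replicate block, 2 members were called higher in systemic lobes than in intact plants, Mp2g15440 by 0.36 (edgeR, adjusted p = 0.00379) and MpPPO20 by 0.31 (edgeR, adjusted p = 0.0228), and 11 of all genes; there same-numbered libraries correlated at 0.021 to 0.453, which missed the limit for pairing, though the library numbered 3 was the highest of its group on the second principal component in every group. The cause of these differences was not tested.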
